A study of Mus musculus with 23 samples.

Results

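Enho and 8 other genes for proteins that the liver secretes into the blood, Angptl4, Angptl6, Igfbp1, Igfbp2, Inhbc, Inhbe, Lect2 and Hgf, were followed in mouse liver. Their probes were found by matching the gene name of every non-control probe on the array to these 9 symbols. Enho was chosen by its own readout, a lower level in untreated Pxr-/- than in untreated WT livers together with a PCN response that ran in opposite directions in the genotypes, so its values are descriptions and carry no test. The other 8 genes were tested. These 8 and the related gene lists below were chosen with earlier results of these data known. The array held 13 probes with these names, all 13 passed the filter on dim probes, and the 9 genes are 9 of the 21056 genes with a kept probe.

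Liver RNA of 23 male C57Bl6/J mice was hybridised, 1 mouse to a 1-colour array. PXR, encoded by Nr1i2, is a nuclear receptor that senses drugs and steroids, and PCN (pregnenolone carbonitrile) is a synthetic steroid that activates it in rodents. WT PCN (5 arrays) and Pxr-/- PCN (6 arrays) mice were injected intraperitoneally with 100 mg/kg/day PCN in corn oil for 4 days. WT CONT (6 arrays) and Pxr-/- CONT (6 arrays) mice received only the corn oil, and all were killed at ZT6 (hours after lights on), 6 h after the last injection. The labels give the mice as fed at that point, whereas the study's text describes the hour as one of partial fasting, so the feeding state is not settled here. WT mice were bought at 6 weeks of age and kept for 2 weeks before the study, whereas the Pxr-/- mice, which lack PXR in the whole body, came from a line bred in the facility for 10 years, and their age was not stated separately. Genotype and colony of origin therefore cannot be told apart. Signals are quantile-normalised log2 values, and a gene is called when its adjusted p in limma is at most 0.05 and its fold change exceeds 1.5. Replicates are separate mice.

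Cyp3a11, the classical PXR target, was 3.55 higher on the log2 scale in WT PCN than in WT CONT (adjusted p = 4.12e-10, limma) and 0.31 higher in Pxr-/- PCN than in Pxr-/- CONT (adjusted p = 0.431). The Nr1i2 probe differed by -0.035 between Pxr-/- CONT and WT CONT (adjusted p = 0.977), so it did not separate the genotypes, and whether it lies in the deleted part is not given in the sources used here. The summed log2 signal of 10 hepatocyte markers lay between 20.33 and 20.59 on every array. The WT PCN arrays (20.33 to 20.46) were below the Pxr-/- PCN arrays (20.47 to 20.56), and the other compared groups overlapped. Of the 10 markers, Apoa1 was called 0.62 higher with PCN in Pxr-/- (adjusted p = 9.55e-04) and Tat 0.73 higher in Pxr-/- PCN than in WT PCN (adjusted p = 0.0436), where 6 of the 10 had an unadjusted p under 0.05. Whether these shifts bear on the hepatokine genes was not tested. In liver RNA as a whole, fewer cells of a type and less RNA per cell cannot be told apart.

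Hepatokines are the hormone-like proteins of the liver. Enho encodes adropin, a small secreted peptide linked to energy balance and to the choice between fat and glucose as fuel. Igfbp1 and Igfbp2 encode binding proteins that carry insulin-like growth factors in plasma and are known for rising when insulin falls. Inhbc and Inhbe encode the liver-enriched β subunits of activin C and activin E, members of the TGFβ family. Angptl4 inhibits lipoprotein lipase, Angptl6 is a secreted angiopoietin-like factor, Lect2 is a chemotactic hepatokine and Hgf is the growth factor that signals to hepatocytes through the receptor Met.

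The sequences below show what the Enho probes detect and what lies before the start of the 3 called genes. The 60-base probes of Enho overlapped by 48 bases at mm9 chr4:41585257-41585304, on the minus strand, so they are nearly the same measurement, and the first 30 of the shared bases are printed. The promoters are the 250 bases before the RefSeq start on GRCm38.p6, with capitals for any AGGTCA or AGTTCA on either strand, the hexamers that nuclear receptors such as PXR bind with their partner RXR.
Enho probes: ctgggccccttctctggtcctcccactgtt
Igfbp2, first of 2 starts, chr1:72824230-72824479, plus strand: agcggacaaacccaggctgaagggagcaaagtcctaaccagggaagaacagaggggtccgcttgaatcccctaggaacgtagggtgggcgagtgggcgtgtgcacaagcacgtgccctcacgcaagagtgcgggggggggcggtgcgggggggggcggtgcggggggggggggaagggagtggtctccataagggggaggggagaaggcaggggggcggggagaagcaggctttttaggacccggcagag
Inhbc, chr10:127370549-127370798, minus strand: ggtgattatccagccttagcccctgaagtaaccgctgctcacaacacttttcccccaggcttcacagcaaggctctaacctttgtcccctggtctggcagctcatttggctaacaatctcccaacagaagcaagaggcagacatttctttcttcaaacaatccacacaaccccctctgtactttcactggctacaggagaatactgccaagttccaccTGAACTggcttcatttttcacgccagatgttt
Inhbe, chr10:127351849-127352098, minus strand: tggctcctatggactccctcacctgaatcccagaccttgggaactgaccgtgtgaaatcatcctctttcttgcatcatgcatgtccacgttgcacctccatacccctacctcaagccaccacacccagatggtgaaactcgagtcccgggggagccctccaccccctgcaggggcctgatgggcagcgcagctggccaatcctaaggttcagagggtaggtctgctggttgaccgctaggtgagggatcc

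Of these 3 windows only that of Inhbc held a match, a single AGTTCA on the other strand that begins 32 bases before the start. Of all 32851 promoter windows of this length, 24.2% held at least 1 of the 2 hexamers on either strand. A pair of hexamers as a direct repeat with 4 bases between, an arrangement known for PXR, was in none of the 9 windows listed for 7 members. It was in 0.0244% of all windows. An everted repeat with 6 bases between was also in none of the 9 and in 0.00913% of all windows. Other arrangements were not searched. No promoter was matched for Enho or Angptl4.

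Enho stood highest in WT CONT and was lower with PCN in WT and in the untreated Pxr-/- livers. In WT CONT the lowest array was at 14.06, the median at 14.23 and the highest at 14.68. In WT PCN the 5 arrays were at 13.00, 12.90, 13.37, 13.45 and 13.12. Every WT PCN array was below every WT CONT array. In Pxr-/- CONT the lowest array was at 11.59, the median at 12.87 and the highest at 14.27. In Pxr-/- PCN the lowest was at 13.28, the median at 13.56 and the highest at 13.96. The Pxr-/- PCN arrays lay within the range of Pxr-/- CONT, and the highest Pxr-/- CONT array reached the level of WT CONT.

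**Figure D1:**
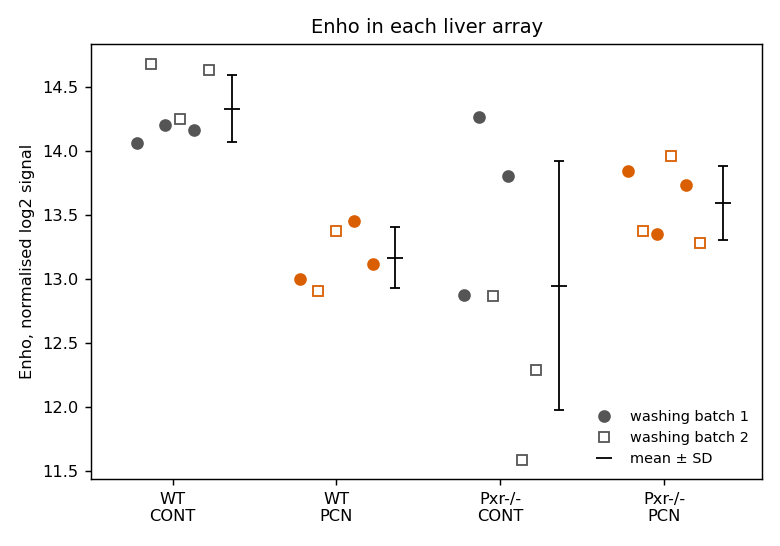
Enho signal (normalised log2, y axis) on each of the 23 liver arrays by group (x axis); filled circles are washing batch 1, open squares washing batch 2, and the bars show the mean ± SD of the group. WT CONT (mean 14.33) lies above all WT PCN arrays (mean 13.17), and the Pxr-/- CONT arrays spread from 11.59 to 14.27 with the batch 2 arrays lowest.

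By group mean the order was WT CONT at 14.33 ± 0.26 (SD, n = 6), Pxr-/- PCN at 13.59 ± 0.29 (SD, n = 6), WT PCN at 13.17 ± 0.24 (SD, n = 5) and Pxr-/- CONT at 12.95 ± 0.97 (SD, n = 6). The last 3 neighbours overlapped in their arrays. The fitted difference of WT PCN from WT CONT was -1.19 (SE 0.30), a 2.29-fold lower level, and that of Pxr-/- PCN from Pxr-/- CONT was 0.64 (SE 0.28), a 1.56-fold higher level. The response in WT minus that in Pxr-/- was -1.84 (SE 0.41). Pxr-/- CONT differed from WT CONT by -1.38 (SE 0.28), a 2.60-fold lower level, and Pxr-/- PCN from WT PCN by 0.45 (SE 0.30). The comparisons share arrays, since WT CONT and Pxr-/- CONT each enter several of them. The SEs assume the same spread in every group, whereas the SD of Pxr-/- CONT (0.97) was well above the others. They may therefore be too small where Pxr-/- CONT enters and too large elsewhere. The fitted differences chose the gene and are given for its description. Across all genes 12.3% had WT PCN and WT CONT arrays that did not overlap.

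The spread of Enho was uneven. Its SD of 0.97 in Pxr-/- CONT was exceeded by 0.375% of genes in that group, where the median SD of all genes was 0.17, while its SD in the other 3 groups was between 0.24 and 0.29. The 6 Pxr-/- CONT arrays separated by the batch in which they were washed. Those of batch 1 were at 12.87, 14.27 and 13.80, and those of batch 2 at 12.87, 11.59 and 12.29, so that the batch 2 mean was 1.40 below the batch 1 mean. A difference of that size either way between the batches was seen in 0.157% of genes (33 of 21056) in this group. In WT CONT the batch 2 mean was 0.38 above that of batch 1, and in WT PCN and Pxr-/- PCN the batch 2 mean differed from that of batch 1 by -0.05 and -0.10. The lowest array of batch 1 and the highest of batch 2 in Pxr-/- CONT were within 0.01 of each other.

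Within washing batch 1 the Enho difference of Pxr-/- CONT from WT CONT was -0.49, against -2.27 within batch 2. The PCN difference in Pxr-/- was -0.0058 within batch 1 and 1.29 within batch 2, and the difference of the responses was -0.95 and -2.67. The PCN difference in WT was the steadier of these values, at -0.95 within batch 1 and -1.38 within batch 2. The part of the washing batch in the level of Pxr-/- CONT was not tested. A slide, here and below, is a set of arrays with the same scan date, so the slides were inferred and not labelled. On slides that carried both groups, Enho was lower with PCN in WT on 4 of 4 slides. In Pxr-/- it was higher with PCN on 4 of 4 slides, where the smallest difference was 0.039. Pxr-/- CONT was below WT CONT on 4 of 5 slides and above it on 1, with differences from -2.66 to 0.21. Pxr-/- PCN was above WT PCN on 3 of 3 slides. These counts use the values that chose Enho, so they describe it and are no test.

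Of the 8 tested genes, 1 rose and 2 fell with PCN in WT, beside 3.79% of all genes called higher, 2.39% called lower and 6.18% called in either direction. Igfbp2 rose and Inhbc and Inhbe fell. Because the 8 genes were chosen with earlier results of these data known, their share called says nothing about hepatokines in general. None of the 8 was called with PCN in Pxr-/- (2.28% of all genes), none in the difference of the responses (1.05%) and none between Pxr-/- PCN and WT PCN (2.09%). At an unadjusted p under 0.05, limma gave 2 of the 8 in each of the first 2 of these comparisons (Lect2 and Hgf, and Igfbp2 and Inhbc) and 0 in the last. Between Pxr-/- CONT and WT CONT, Igfbp2 was called higher and no other gene was called, beside 0.228% of all genes called higher and 0.309% called in either direction. The 8 fitted changes had a median of 0.04 with PCN in WT and 0.06 with PCN in Pxr-/-, against medians of -0.024 and -0.012 over all genes.

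**Figure D2:**
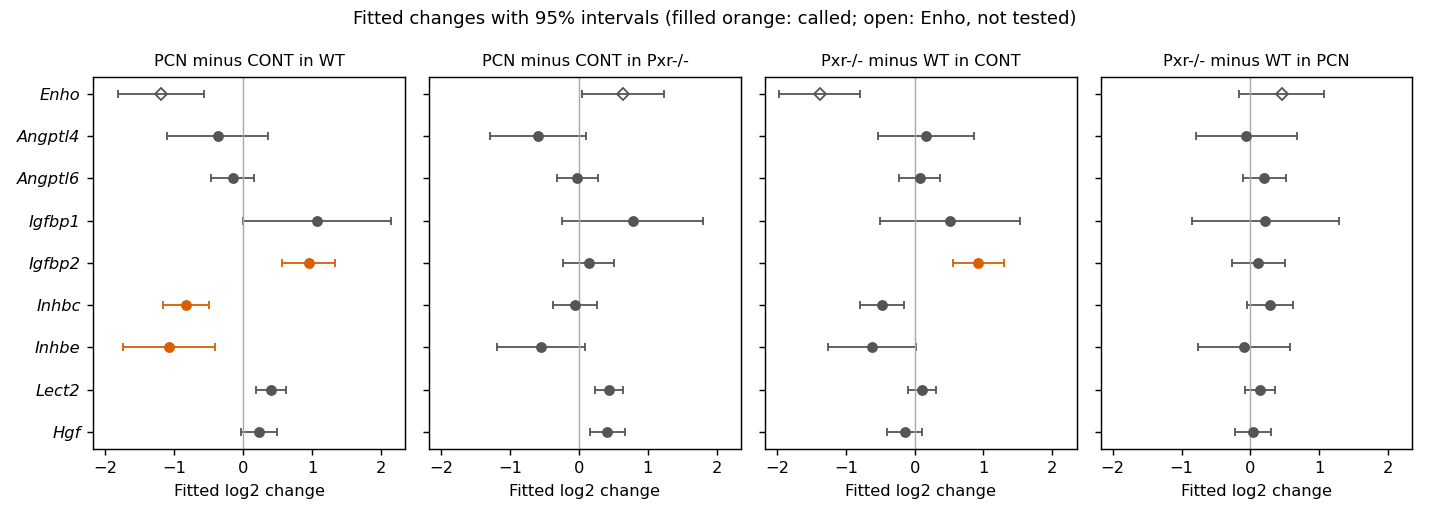
Fitted log2 change (x axis) of each gene (rows) with its 95% interval in 4 comparisons, from left: PCN minus CONT in WT and in Pxr-/-, and Pxr-/- minus WT in CONT and in PCN mice. Orange marks the called genes, Igfbp2 (0.96), Inhbc (-0.83) and Inhbe (-1.08) in WT and Igfbp2 (0.93) between untreated genotypes. The open diamond is Enho, which was not tested. Enho was chosen by these differences, so its intervals describe the fit and cannot be read as a test.

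Igfbp2, a carrier of insulin-like growth factors, was low only in WT CONT. There the lowest array was at 13.08, the median at 13.84 and the highest at 14.68. The WT PCN arrays were at 14.61, 14.83, 14.87, 14.89 and 15.00. All but 1 WT CONT array were below every WT PCN array. The exception, WT CONT replicate 2 at 14.68, exceeded the lowest WT PCN array. The fitted change was 0.96 (SE 0.19, 1.94-fold, adjusted p = 8.71e-04, limma).

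In Pxr-/- CONT, Igfbp2 had its lowest array at 14.53, its median at 14.78 and its highest at 15.20. In Pxr-/- PCN the lowest was at 14.56, the median at 14.96 and the highest at 15.26. Pxr-/- CONT was 0.93 above WT CONT (SE 0.18, 1.90-fold, adjusted p = 0.014), and the arrays overlapped only through WT CONT replicate 2. It was higher on 5 of 5 slides that held both groups. PCN changed Igfbp2 by 0.14 in Pxr-/- (95% interval -0.23 to 0.51, adjusted p = 0.706). The difference between the WT and Pxr-/- responses was 0.82 (SE 0.26) and did not pass over all probes (adjusted p = 0.122). Without WT CONT replicate 2 that difference was 0.97 and was called (adjusted p = 0.0211). Both Igfbp2 calls use the same 6 WT CONT arrays and are not independent of each other. In a fit of the untreated groups alone, the genotype difference was 0.93 with adjusted p = 0.137.

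Within washing batch 1 the Igfbp2 changes were 1.02 for PCN in WT (adjusted p = 0.00205) and 1.12 for genotype in untreated mice (adjusted p = 0.0293). Within batch 2 they were 0.89 (adjusted p = 0.152) and 0.73 (adjusted p = 0.267), so the direction was the same in both.

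Igfbp1, the related carrier that insulin represses, had a wide range in each group. In WT CONT its lowest array was at 10.66, its median at 12.21 and its highest, replicate 2, at 14.02. The WT PCN arrays were at 13.83, 12.12, 12.72, 14.47 and 13.88. The fitted change of 1.08 (SE 0.52) did not pass the test (adjusted p = 0.142). Without WT CONT replicate 2 the change was 1.39 and was called (adjusted p = 0.0485). It was also called within washing batch 1 (2.03, adjusted p = 0.0427) and was -0.24 within batch 2 (adjusted p = 0.847). Its WT PCN arrays did not overlap between the batches, with means of 14.06 in batch 1 and 12.42 in batch 2. In Pxr-/- CONT the lowest, median and highest arrays were at 11.77, 13.23 and 13.58, and in Pxr-/- PCN at 12.95, 13.53 and 14.84. These groups overlapped, and the change of 0.78 (SE 0.49) did not pass (adjusted p = 0.379).

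**Figure D3:**
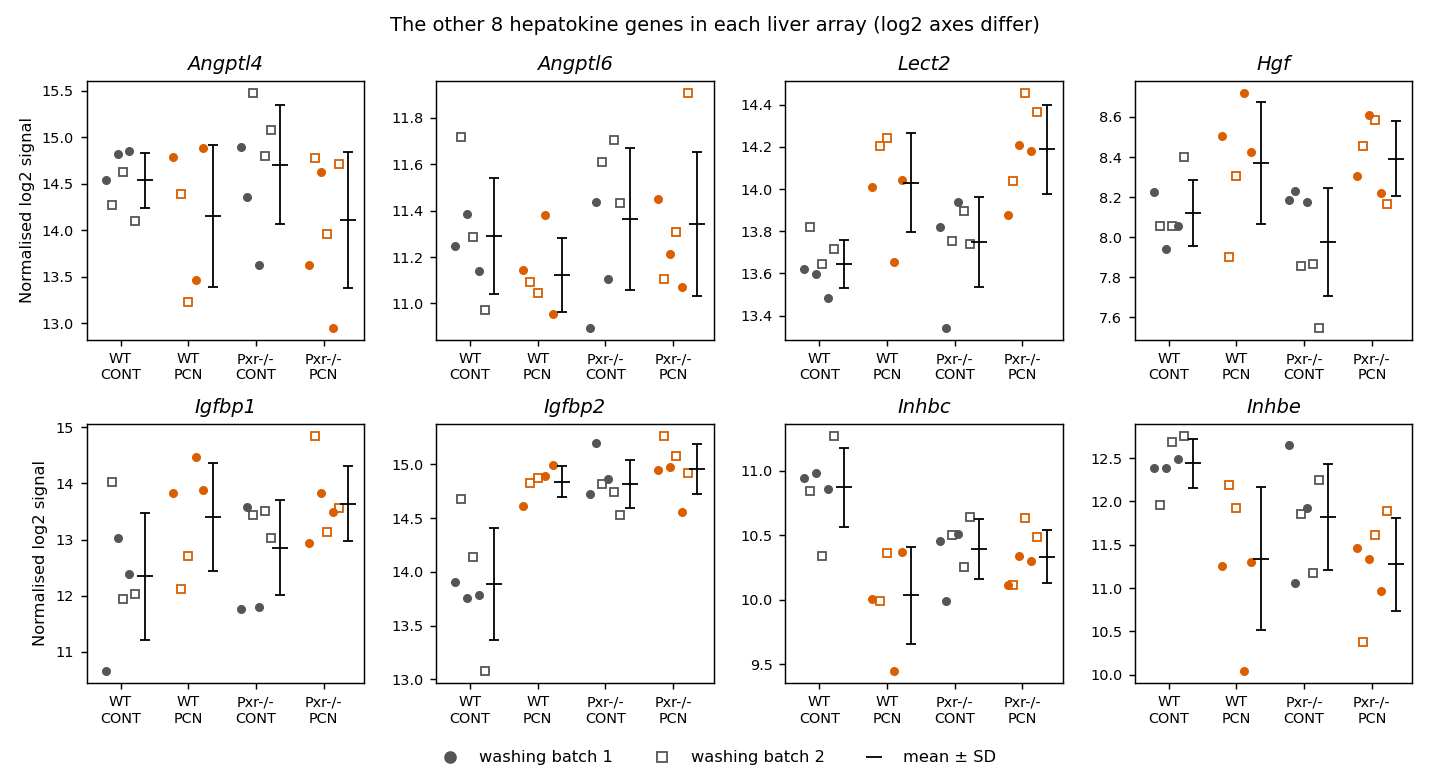
Normalised log2 signal (y axes, which differ between panels) of the other 8 genes on each array by group (x axes); filled circles are washing batch 1, open squares washing batch 2, and the bars give the mean ± SD. Igfbp2 is low in WT CONT (mean 13.89), Inhbc and Inhbe are high there (means 10.87 and 12.44), and Lect2 is higher in the PCN groups (means 14.03 and 14.19) than in the CONT groups (13.65 and 13.75).

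Inhbc and Inhbe, the activin C and activin E subunits, were both highest in WT CONT and fell with PCN in WT. For Inhbc the lowest WT CONT array was at 10.34, the median at 10.90 and the highest at 11.27. The WT PCN arrays were at 10.01, 9.99, 10.36, 9.45 and 10.37. The groups overlapped only through the lowest WT CONT array. The fitted change was -0.83 (SE 0.16), a 1.77-fold lower level (adjusted p = 9.26e-04, limma).

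For Inhbe the lowest WT CONT array was at 11.95, the median at 12.44 and the highest at 12.76. The WT PCN arrays were at 11.26, 12.19, 11.92, 10.04 and 11.30, and all but the one at 12.19 were below every WT CONT array. The fitted change was -1.08 (SE 0.32), a 2.11-fold lower level (adjusted p = 0.0197). The low array at 10.04, WT PCN replicate 4, also had the lowest Inhbc, and without it the change of Inhbe was -0.78 and was no longer called (adjusted p = 0.0686). The 2 WT PCN arrays of washing batch 2 were above the 3 of batch 1, with means of 12.06 and 10.87. Within batch 1 the changes were -0.99 for Inhbc (adjusted p = 0.0102) and -1.56 for Inhbe (adjusted p = 0.0227). Within batch 2 they were -0.64 (adjusted p = 0.158) and -0.41 (adjusted p = 0.614).

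In Pxr-/-, PCN changed Inhbc by -0.057 (95% interval -0.38 to 0.26, adjusted p = 0.878) and Inhbe by -0.55 (95% interval -1.19 to 0.10, adjusted p = 0.321). The lowest, median and highest Inhbc arrays were 9.99, 10.48 and 10.64 in Pxr-/- CONT and 10.12, 10.32 and 10.64 in Pxr-/- PCN, nearly the same range. Those of Inhbe were 11.05, 11.89 and 12.65, and 10.38, 11.40 and 11.89. The difference of the Inhbc responses was -0.77 (SE 0.22, adjusted p = 0.0918), and that of the Inhbe responses was -0.53 (SE 0.45, adjusted p = 0.641). Neither passed. Without WT CONT replicate 4, whose Inhbc was the lowest of its group, the Inhbc difference was -0.89 and was called (adjusted p = 0.0239). Untreated Pxr-/- livers had Inhbc 0.48 and Inhbe 0.62 below WT CONT in the fit, values that did not pass (adjusted p = 0.221 and 0.453).

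Inhbc and Inhbe are neighbours on chromosome 10, on the same strand, with 4473 bases between them in GRCm38.p6. After removal of group and batch, their arrays correlated with r = 0.57 over 23 arrays that share slides and the fit. Lect2, on chromosome 13, had r = 0.65 with Inhbc and 0.56 with Inhbe by the same measure, and Igfbp1 had -0.75 with Inhbe. Of the 9 measured genes within 100000 bases of Inhbc, Inhbe was the only gene called in any of the 5 comparisons. That call was with PCN in WT, where 6.18% of all genes were called. There, Mbd6 (-0.37, adjusted p = 8.78e-04, limma) and Arhgap9 (0.445, adjusted p = 0.0341) passed the p threshold and lay under the fold threshold.

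Lect2 was the gene with the most even PCN response. In WT CONT the lowest array was at 13.48, the median at 13.63 and the highest at 13.82. The WT PCN arrays were at 14.01, 14.20, 14.24, 13.65 and 14.04, with only the lowest inside the range of WT CONT. In Pxr-/- CONT the lowest, median and highest arrays were at 13.34, 13.79 and 13.94, and in Pxr-/- PCN at 13.88, 14.20 and 14.46. The fitted change was 0.40 in WT (SE 0.10, 1.32-fold, adjusted p = 0.0072) and 0.44 in Pxr-/- (SE 0.10, 1.36-fold, adjusted p = 0.0105). Both passed the p threshold and lay under the fold threshold, so Lect2 was not called. The difference of the responses was -0.037 (95% interval -0.33 to 0.26).

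Hgf had the same direction of change in both genotypes on the probe used. Its means were 8.12 ± 0.16 (SD, n = 6) in WT CONT, 8.37 ± 0.30 (SD, n = 5) in WT PCN, 7.98 ± 0.27 (SD, n = 6) in Pxr-/- CONT and 8.39 ± 0.19 (SD, n = 6) in Pxr-/- PCN. On this probe, the fitted PCN change was 0.23 in WT (SE 0.13, adjusted p = 0.205) and 0.41 in Pxr-/- (SE 0.12, 1.33-fold, adjusted p = 0.0431), under the fold threshold. It reads a short Hgf transcript variant, and the probe at the end of the full-length transcript gave 0.23 in WT (adjusted p = 0.071) and 0.30 in Pxr-/- (adjusted p = 0.0358). Of the remaining probes, 1 gave 0.16 and 0.41. The other, which was above background on 21 of 23 arrays, gave 0.28 and -0.05.

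Hgf is made in liver mainly by stellate and endothelial cells. Of 14 stellate cell markers, 4 were called higher with PCN in WT and the same 4 in Pxr-/-. Over all genes, 6.18% were called in WT and 2.28% in Pxr-/- in either direction. The 4 were the collagen genes Col1a1 (3.17 and 1.96), Col1a2 (2.18 and 1.38) and Col3a1 (2.18 and 1.22) and the matrix proteoglycan Lum (1.13 and 0.89). In the fit, 8 of the 14 were higher and 6 lower with PCN in WT, and 13 higher and 1 lower in Pxr-/-. The summed stellate signal had a median of 15.60 in WT CONT, 15.86 in WT PCN, 15.75 in Pxr-/- CONT and 15.88 in Pxr-/- PCN. It ranged over 15.43 to 16.15, 15.63 to 16.12, 15.13 to 15.96 and 15.36 to 16.21 in these groups. None of 12 endothelial markers was called, with 5 at an unadjusted p under 0.05 with PCN in WT and 3 in Pxr-/- (limma), and their summed signal had medians of 14.89, 14.75, 14.73 and 14.97 in the same order. The part of these cells in the Hgf values was not tested.

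Angptl4 and Angptl6 did not pass in any comparison. The arrays of Angptl4, the lipase inhibitor, ran from 14.10 to 14.85 in WT CONT, 13.23 to 14.88 in WT PCN, 13.63 to 15.48 in Pxr-/- CONT and 12.95 to 14.78 in Pxr-/- PCN. Angptl4 changed by -0.37 with PCN in WT (95% interval -1.10 to 0.37, adjusted p = 0.497) and by -0.60 in Pxr-/- (95% interval -1.29 to 0.10, adjusted p = 0.318). Its group SDs were between 0.30 and 0.76, so a difference of the size seen for Inhbc lies inside the first interval. The Angptl6 means lay between 11.12 and 11.36 in the 4 groups. It changed by -0.15 in WT (95% interval -0.46 to 0.16) and by -0.021 in Pxr-/- (95% interval -0.31 to 0.27), which leaves out changes as large as those of Inhbc and Inhbe.

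Among 23 measured other hepatokines, 2 were called higher and 3 lower with PCN in WT, and 1 lower in Pxr-/-. Over all genes, 3.79% were called higher and 2.39% lower in WT, and 2.28% in either direction in Pxr-/-. Fgf21, a fasting hormone of the liver, fell by 2.17 in WT (SE 0.43, adjusted p = 0.00111), and its change in Pxr-/- was -0.82 (adjusted p = 0.254). Its means were low in both PCN groups, 5.96 in WT and 6.00 in Pxr-/-, with no background subtracted. Whether this limited the size of its changes was not tested. The difference of its responses was -1.35 (SE 0.60) and did not pass (adjusted p = 0.296). Gdf15, a stress hormone that reduces appetite, rose by 2.02 in WT (SE 0.30, adjusted p = 6.74e-05) and changed by 0.10 in Pxr-/- (adjusted p = 0.886). The difference of its responses was 1.92 (adjusted p = 0.0163), and Gdf15 was 2.60 lower in Pxr-/- PCN than in WT PCN (adjusted p = 7.64e-06). Hamp, encoding the iron hormone hepcidin, fell by 0.95 in WT (adjusted p = 0.0381), and its near-identical copy Hamp2 rose by 1.49 (adjusted p = 0.0432), although probes may not fully separate these copies. The changes of Hamp and Hamp2 in Pxr-/- were 0.30 and -0.43 and did not pass (adjusted p = 0.623 and 0.679). Neither did the differences of their responses (adjusted p = 0.182 and 0.209). The median change of the list was 0.015 in WT, against -0.024 over all genes.

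In the IGF pathway, 14 genes were measured, of which 1 was called higher and 2 lower with PCN in WT and 1 each way in Pxr-/-. Over all genes, 6.18% were called in either direction in WT and 2.28% in Pxr-/-. Irs1, a docking protein of the insulin and IGF1 receptors, fell by 0.95 in WT (adjusted p = 0.00272) and by 0.90 in Pxr-/- (adjusted p = 0.0109). Igfbp5, which lies 5590 bases from Igfbp2 on chromosome 1, fell by 1.22 in WT (adjusted p = 9.89e-04), opposite to Igfbp2. Its change in Pxr-/- was -0.72 (adjusted p = 0.0612), and the difference of its responses, -0.50, did not pass (adjusted p = 0.529). Htra1, a protease that cleaves IGF binding proteins, rose by 0.66 in WT (adjusted p = 0.0281) and changed by 0.33 in Pxr-/- (adjusted p = 0.363). Igfbp6 rose by 1.26 in Pxr-/- (adjusted p = 0.0483) and was 0.93 higher in WT without passing (adjusted p = 0.0966).

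In the activin pathway, 15 genes were measured, with 2 called higher and 2 lower in WT and 1 each way in Pxr-/-. The shares of all genes called in either direction were 6.18% in WT and 2.28% in Pxr-/-. Inhbb, the activin B subunit, rose by 1.59 in WT (SE 0.38, adjusted p = 0.00471) and by 1.65 in Pxr-/- (SE 0.36, adjusted p = 0.00982), the direction opposite to Inhbc and Inhbe. Fst, encoding the activin antagonist follistatin, fell by 0.71 in WT (adjusted p = 0.0187) and 0.72 in Pxr-/- (adjusted p = 0.0364). Its group means were low, from 5.95 to 6.805, and whether this limited its changes was not tested. The secreted follistatin-like Fstl1 rose by 1.20 in WT (adjusted p = 3.20e-04), and Smad7, which inhibits TGFβ receptor signalling, fell by 1.05 (adjusted p = 8.19e-04). Their changes in Pxr-/- were 0.50 and -0.61 and did not pass (adjusted p = 0.143 and 0.0589). Neither did the differences of their responses, 0.71 and -0.44 (adjusted p = 0.252 and 0.508).

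**Figure D4:**
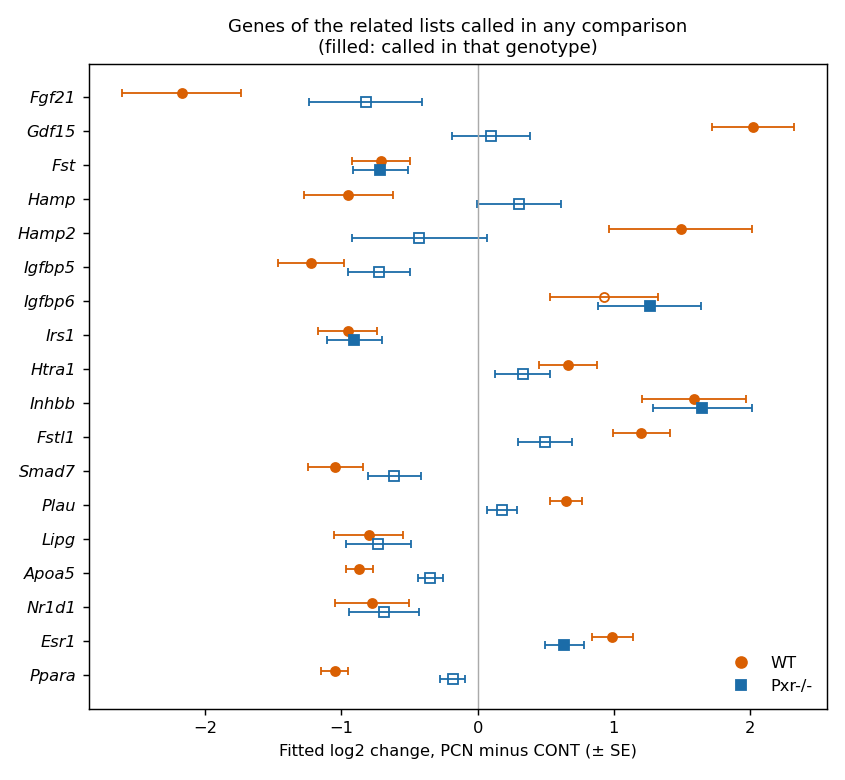
Fitted log2 change with PCN (x axis, ± SE) of the 18 genes of the 6 related lists that were called in any comparison (rows), in WT (orange circles) and Pxr-/- (blue squares); filled symbols were called in that genotype. Fst, Irs1, Inhbb and Esr1 were called in both genotypes, and Gdf15 (2.02 against 0.10) and Ppara (-1.05 against -0.18) differ between them.

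With PCN, 6.18% of all genes were called in WT and 2.28% in Pxr-/-, the shares to set beside the lists below. Around Hgf, 13 receptor, protease and adaptor genes were measured and only Plau was called. Plau, encoding urokinase, an activator of HGF, was higher by 0.65 in WT (adjusted p = 4.17e-04). It changed by 0.18 in Pxr-/- without passing (adjusted p = 0.364). Its group means were low, from 5.92 to 6.56, and whether this limited its changes was not tested. In the ANGPTL and lipase list of 11 measured genes, the endothelial lipase Lipg fell by 0.80 in WT (adjusted p = 0.0245). Apoa5, an activator of plasma triglyceride hydrolysis, fell by 0.87 in WT (adjusted p = 2.23e-06). None of this list was called in Pxr-/-. There, Lipg changed by -0.73 (adjusted p = 0.0693) and Apoa5 by -0.35 (adjusted p = 0.0261, under the fold threshold). Lipg had low means of 5.36 in WT PCN and 5.60 in Pxr-/- PCN, and whether this limited its changes was not tested. In a list of 9 genes, made of 8 nuclear receptors and the proposed adropin receptor Gpr19, Esr1 rose by 0.99 in WT (adjusted p = 9.17e-05) and 0.64 in Pxr-/- (adjusted p = 0.011). Nr1d1, a repressor of the circadian clock, fell by 0.78 in WT (adjusted p = 0.0417). Its change in Pxr-/- was -0.69 and did not pass (adjusted p = 0.112), and the difference of its responses was -0.085 (adjusted p = 0.949). Ppara, the fatty acid receptor of the fasting response, fell by 1.05 in WT (adjusted p = 2.17e-07) with a change of -0.18 in Pxr-/-, and the difference of -0.87 passed (adjusted p = 8.82e-04). In untreated mice no gene of the 6 lists was called between the genotypes, where only 0.309% of all genes were called. Of the 79 listed genes, 13 had an unadjusted p under 0.05 in limma.

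The genes most like Enho were ranked among 15098 genes with RefSeq names, over 23 arrays that share slides, batches and the group pattern by which Enho was chosen. After removal of the batch term, Pearson's r was highest for Dnaic1 (0.84), followed by Csrp2 (0.80), Arpc2 (0.77), Phc2 (0.75) and Wdr55 (0.75). It was lowest for Tgds, Tkt and 4930519F09Rik, each at -0.80. After group means were also removed, the highest were P2ry6 (0.87), Soat1 (0.86), Ccdc88b (0.84), Cyth4 (0.84) and Itga4 (0.83), and the lowest Espnl (-0.81), Me1 (-0.80) and 4930519F09Rik (-0.79). Cyth4 and Itga4 are known from leukocytes. By the same measure Enho had r = 0.61 with the summed signal of 11 Kupffer cell markers and 0.55 with that of 7 lymphocyte markers. It had -0.034 with hepatocyte, 0.099 with stellate cell, -0.12 with endothelial, 0.010 with cholangiocyte and -0.31 with blood markers. The Kupffer sum ranged from 15.31 to 16.27 in WT CONT, 15.16 to 16.80 in WT PCN, 15.13 to 16.17 in Pxr-/- CONT and 15.28 to 16.34 in Pxr-/- PCN. None of these Kupffer and lymphocyte markers was called in any comparison, and at an unadjusted p under 0.05 limma gave 0 Kupffer markers and at most 2 lymphocyte markers. In the fit, all 11 Kupffer markers were lower in Pxr-/- CONT than in WT CONT and higher with PCN in Pxr-/-, the directions of Enho. With PCN in WT, where Enho fell, 9 Kupffer markers were higher and 2 lower. Other cell types also had mostly lower markers in Pxr-/- CONT and mostly higher ones with PCN in Pxr-/-. These were endothelial (9 and 11 of 12), stellate (9 and 13 of 14), cholangiocyte (7 and 5 of 7) and lymphocyte markers (5 and 5 of 7). All 5 blood markers went the opposite way in both, and most hepatocyte markers were higher in both. From batch 1 to batch 2 the Kupffer sum differed by 0.34 in WT CONT, 0.12 in WT PCN, -0.26 in Pxr-/- CONT and -0.087 in Pxr-/- PCN. The part of these cells in the Enho values was not tested. Within the hepatokine genes this second measure was highest for Hgf (0.43) and lowest for Angptl4 (-0.52). The lists of 5 depend on the measure, since Spearman's correlation kept 2 of the 5 genes in the first ranking and 1 in the second. With the deposited values the lowest genes of the first ranking were closer to 0, with r of -0.53 for Tgds, -0.41 for Tkt and -0.46 for 4930519F09Rik, and those of the second were -0.63 for Espnl, -0.67 for Me1 and -0.58 for 4930519F09Rik.

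Dnaic1, which encodes a dynein chain of motile cilia, is the direct neighbour of Enho. It runs on the opposite strand at GRCm38.p6 chr4:41569647-41638158 and overlaps the end of Enho by 15 bases. Its only probe, on mm9, lies 64 bases from the Enho probe used, so the 2 signals may not be separate measurements. Dnaic1 was at 9.17 ± 0.33 (SD, n = 6) in WT CONT, 8.61 ± 0.18 (SD, n = 5) in WT PCN, 8.75 ± 0.33 (SD, n = 6) in Pxr-/- CONT and 8.81 ± 0.17 (SD, n = 6) in Pxr-/- PCN. Its change with PCN in WT was -0.55 (SE 0.15, adjusted p = 0.013), under the fold threshold. The other 5 measured genes within 100000 bases of Enho had r between -0.26 and 0.45 with it.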

How the data were processed

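The authors extracted liver RNA, labelled it with Cy3, hybridised it to Agilent mouse arrays and read the spots with Agilent Feature Extraction 10.10.1.1; the deposited scanner files hold spot intensity. The authors' deposited log2 values, which they corrected for washing batch, served only as an alternative. Here, the log2 median intensity of spots without an outlier flag was averaged per probe, a probe was kept (32087 of 56605) if flagged as well above background in more than 50% of a group's arrays, and arrays were quantile-normalised. A model with 4 groups and washing batch was fitted across all probes with limma 3.58.1 (R 4.3.3), with Benjamini-Hochberg adjustment; the Pxr-/- and WT comparisons share groups. The code was tested on simulated data. Each array had between 29510 and 33321 probes well above background; the number of arrays limits the precision.

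A gene was read from its brightest kept probe. Named genes are the 9 hepatokine genes, the called genes of 6 related lists (at most the 4 largest per list and comparison), the 5 highest and 3 lowest correlates of Enho by each measure, Cyp3a11 and Nr1i2. The hepatokine genes and all lists were chosen with earlier results of these data known. Igf2, Pappa2, Inha, Acvr1c, Angptl1 and Angptl7 did not pass the filter. Markers of cholangiocytes and blood were also summed, and their ranges overlapped between compared groups; of these markers only Sox9 was called, higher by 0.76 with PCN in WT and lower in Pxr-/- PCN than WT PCN by -0.76. Alternatives were another signal, background correction, normalisation, filter, batch term, slide or replicate block, sample set, probe, and each array left out. Promoters are from RefSeq (GRCm38.p6), for 7 of 9 genes; array positions are mm9 as in the files.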

Additional observations from a re-analysis of the deposited data

Results flagged for a closer look

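In the 36 groups of the 9 genes, 1 array was set apart by more than the 95% limit for a gap relative to the range, where chance flags about 1 in 20 groups: Lect2 was at 13.34 in Pxr-/- CONT replicate 2, with the next array at 13.74. The PCN responses of WT and Pxr-/- differed by the interaction test for Gdf15, by 1.92 (adjusted p = 0.0163, limma), and for Ppara, by -0.87 (adjusted p = 8.82e-04).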

How the results depend on the processing

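The 3 hepatokine calls with PCN in WT fell to 0 within washing batch 2 alone, where 2 WT PCN arrays remain, and were between 2 and 4 with each array left out. The Igfbp2 call between untreated genotypes fell to 0 within washing batch 2 and to 0 when only the groups compared were fitted. In the difference of the PCN responses, the count rose from 0 to 1 with the deposited values (Igfbp2, 1.02) and lay between 0 and 1 with each array left out: Igfbp2 (0.97) was called without WT CONT replicate 2 and Inhbc (-0.89) without WT CONT replicate 4. Lect2 in WT was called with the deposited values (0.64). No other setting changed the number of these calls by more than 1.5 times.

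The counts of the related lists moved as follows. The HGF and MET count of 1 became 2 with the processed signal, 0 with normexp and 0 within each batch, and was 0 to 1 with each array left out, 0 being without WT PCN replicate 2. The ANGPTL and lipase count of 2 became 1 with normexp and was 1 to 2, at 1 without WT CONT replicate 2, 3 or 5 or WT PCN replicate 3. The count of other hepatokines of 5 became 3 without a filter and 2 within batch 2 and was 3 to 6, lowest without WT PCN replicate 2 or 3. The IGF count of 4 became 0 within batch 2 and was 2 to 5, and left its range of 1.5 times without WT CONT replicate 1 or 5 or WT PCN replicate 4. The activin count of 4 became 0 within batch 2. Of the 5 genes most like Enho, Spearman's correlation shared 2 before and 1 after removal of group means, and the deposited values shared 2 and 3.

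Changes of sign were among small or scattered values. Lect2 in the difference of responses became 0.050 with the processed signal, 0.076 with scaling to the 75th percentile, 0.15 with the deposited values and 0.0083 within batch 2. With the deposited values Angptl6 became 0.013 with PCN in WT, 0.030 with PCN in Pxr-/-, -0.066 between untreated and -0.049 between PCN-treated genotypes, Lect2 became -0.0091 between untreated genotypes, and between PCN-treated genotypes Igfbp1 became -0.059, Igfbp2 -0.18, Lect2 -0.16 and Hgf -0.17. Within batch 1, PCN in Pxr-/- gave -0.0058 for Enho, 0.099 for Angptl6 and -0.11 for Igfbp2, the difference of responses gave 0.30 for Hgf, untreated genotypes gave -0.44 for Angptl4, -0.11 for Angptl6 and 0.13 for Hgf, and PCN-treated genotypes gave -0.63 for Igfbp1, -0.0068 for Igfbp2, 0.39 for Inhbe and -0.17 for Hgf. Within batch 2, PCN in WT gave -0.24 for Igfbp1 and -0.069 for Hgf, the difference of responses gave -0.76 for Igfbp1 and 0.057 for Inhbe, and PCN-treated genotypes gave 0.67 for Angptl4. For Hgf between PCN-treated genotypes the mean of its probes gave -0.016 and the full-length probe -0.052, and the probe with fewest arrays above background gave -0.052 with PCN in Pxr-/-, 0.33 in the difference of responses, 0.14 between untreated and -0.20 between PCN-treated genotypes. With each array left out, Angptl6 ranged from -0.12 to 0.046 with PCN in Pxr-/- and -0.012 to 0.15 between untreated genotypes. The difference of responses ranged from -0.0066 to 0.53 for Angptl4, -0.058 to 0.69 for Igfbp1 and -0.094 to 0.039 for Lect2. Between PCN-treated genotypes the ranges were -0.36 to 0.18 for Angptl4, -0.18 to 0.50 for Igfbp1, -0.39 to 0.11 for Inhbe and -0.066 to 0.11 for Hgf. The cause was not tested.

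Over all genes, 1302 were called with PCN in WT (689 within batch 2), 481 with PCN in Pxr-/- (55 within batch 1, 94 within batch 2 and 311 without Pxr-/- PCN replicate 4) and 221 in the difference of responses (84 and 91 within the batches). Between untreated genotypes 65 were called (9 within batch 1 and 42 with only those groups fitted), and between PCN-treated genotypes 441 (1097 with the deposited values, 279 and 118 within the batches). Replicate numbers are shared between groups and were not used as pairs in the main fit. Of same-number pairs of arrays, 13 of 33 had deviations correlated over 0.1 (mean 0.056, highest 0.611). Of different-number pairs, 40 of 165 did (mean -0.01, highest 0.357). Whether same-number arrays are more alike was not tested. With the replicate block the calls of these genes stayed the same, with Igfbp2 at 0.87 and Inhbe at -1.01 with PCN in WT. Slide as a random block had a correlation of 0.0095 and changed no call of these genes. The number of arrays, with 5 in WT PCN, limits the precision.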
